A study of Ophiorrhiza pumila with 6 samples.

Results

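Transgenic hairy roots of *Ophiorrhiza pumila*, a camptothecin-producing plant of the coffee family, were examined for the genes that loosen and build the cell wall. Members were the contigs of the deposited annotation table whose description holds expansin, xyloglucan, cellulose synthase, endoglucanase, COBRA or galactomannan, which gave 136 of 59855 contigs, from 115 of 47425 assembly genes. By description, 68 were placed with wall loosening (22 expansins, 35 xyloglucan endotransglucosylase/hydrolases or XTH, and 11 endoglucanases). A further 64 were placed with wall synthesis (14 cellulose synthases or CesA, 17 cellulose synthase-like contigs, 15 xyloglucan transferases, 15 COBRA contigs and 3 galactomannan galactosyltransferases), and 4 with neither. The ERF2i lines carried an RNAi construct against *OpERF2* and the ERF1i lines one against *OpERF1*, both genes for AP2/ERF transcription factors, and the GUSi lines carried the same kind of construct against β-glucuronidase, a bacterial reporter that the plant lacks. Each group held 2 lines (clones 2 and 3, 7 and 19, and 9 and 10), sampled as roots of 3 weeks. All 6 lines were roots induced by *Agrobacterium rhizogenes* and carried an RNAi T-DNA, the GUSi lines too. Each line was a single transformation event with 1 library, so the spread within a group is that between 2 clones. The shared question was what suppressing each factor changes in the transcriptome relative to GUSi.

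A growing root cell is held by cellulose microfibrils tied together by xyloglucan in a pectin matrix. Expansins loosen this network without cutting it, XTH enzymes cut and rejoin xyloglucan chains, and plant endoglucanases of family GH9 act on glucan chains. CesA proteins make cellulose in rosettes at the plasma membrane, with different subunits in the primary wall of growing cells and in the secondary wall of xylem and fibres. Xyloglucan and mannan backbones and side chains are made in the Golgi by cellulose synthase-like proteins and glycosyltransferases.

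Values are expected counts from RSEM, used in the tests, and FPKM, fragments per kilobase of contig scaled to sequencing depth, used for levels. Each library held 11517610 to 13199946 expected counts, of which 0.547% to 0.706% fell on the members. The sample titles number the ERF2i clones 2 and 3 the other way round from the column names of the annotation table, and titles were followed here, which leaves the group unaffected. The study matched its *OpERF1* clone to contig c15284_g1_i1 and its *OpERF2* clone to c17706_g2_i1. The *OpERF1* contig had 698 and 584 FPKM in ERF2i and 3.46 and 18.9 in ERF1i, against 206 and 134 in GUSi, and fell by 3.86 ± 0.66 on the log2 scale in ERF1i (adjusted p = 0.0312), while it rose by 2.14 ± 0.59 in ERF2i (adjusted p = 0.0407). The *OpERF2* contig had 3.29 and 14.8 FPKM in ERF2i and 9.69 and 28 in ERF1i, against 15.2 and 8.33 in GUSi. It did not pass in ERF2i (-0.15 ± 0.73, adjusted p = 0.903), and line ERF2i-3 lay within the range of the GUSi lines. Line ERF2i-2 lay below both GUSi lines, and the contig held only 12 and 55 counts in ERF2i, against 63 and 35 in GUSi. A reduced *OpERF2* level was thus not seen for the ERF2i group in these libraries. By qRT-PCR, however, the study reported strong suppression of *OpERF2* in its ERF2i lines. Reads of a hairpin, which can add to the contig of its target, were not told apart. Every ERF2i direction here is therefore that of lines known by their label. Libraries of ERF1i held more reads of shoot-type genes. For the counts called here, 2.65% of all contigs tested were higher and 1.4% lower in ERF1i than in GUSi, and 13.2% and 9.88% in ERF2i. Of 34 tested contigs for photosystem, chlorophyll-binding and Rubisco small subunit proteins, 8 were higher and 0 lower in ERF1i than in GUSi, with a summed level of 137 and 198 FPKM in ERF2i and 302 and 375 in ERF1i, against 167 and 159 in GUSi, and 4 of 5 YABBY and protodermal factor contigs were higher, with a summed level of 7.45 and 3.22 FPKM in ERF2i and 29.9 and 115 in ERF1i, against 5.37 and 3.35 in GUSi. Of all 95 photosynthesis contigs listed, 44 had 0 counts in both ERF2i libraries, 41 in both ERF1i libraries and 43 in both GUSi libraries. Root marker genes were read in all groups: of 5 contigs for Casparian strip membrane protein and SHORT-ROOT, 0 lacked counts in any group, and of the 4 tested, 0 rose and 1 fell in ERF2i and 0 passed in ERF1i. These 5 are part of a wider list that adds SCARECROW-like 3 and root hair defective descriptions. Of its 23 tested contigs, 4 were higher and 1 lower in ERF2i, and 0 were called in ERF1i. Cyclin and histone contigs were higher in 6 and lower in 8 of 52 cases in ERF2i, and higher in 0 and lower in 1 in ERF1i. A contig of mannopine synthase, a gene that the root-inducing bacterium carries, had 511 and 262 FPKM in ERF2i and 0.160 and 0 in ERF1i, against 145 and 136 in GUSi, and a contig annotated as a *rol* protein of this bacterium (c27304_g1_i1) had 64.3 and 29.6 FPKM in ERF2i and 0.0900 and 0.0900 in ERF1i, against 30.2 and 25.2 in GUSi. Both were almost unread in the ERF1i clones, with log2 differences from GUSi of -10.57 (adjusted p = 0.00522) and -8.05 (adjusted p = 0.00912). Contig c27304_g1_i1 is 1 of 2 contigs with a *rolB* best hit. The other, c30113_g1_i1, had 31.4 and 24.3 FPKM in ERF1i, and the contig with a *rolC* best hit (c36680_g1_i1) had 226 and 408. The part of these genes in the wall gene results was not tested.

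Of the 136 members, 99 passed edgeR's filter on low counts (54 of loosening, 41 of synthesis and the 4 of neither). In the lines labelled ERF2i, 5 loosening contigs were higher and 13 lower than in GUSi, and 8 synthesis contigs were higher and 11 lower. Over all members, 14 (14.1%) rose and 27 (27.3%) fell, beside 13.2% and 9.88% of all 33315 contigs tested, so the share higher was near that of all contigs and the share lower above it. In ERF1i, 2 loosening contigs were higher and 4 lower, and 2 synthesis contigs were higher and 6 lower. That made 4 members (4.04%) higher and 10 (10.1%) lower, beside 2.65% and 1.4% of all contigs. Between those groups, ERF2i had 3 loosening contigs higher and 12 lower than ERF1i, and 10 synthesis contigs higher and 9 lower, with 10.6% and 9.01% of all contigs called. Calls are at an adjusted p under 0.05 in edgeR's quasi-likelihood test, adjusted by Benjamini and Hochberg over all contigs tested. The loosening and synthesis shares were not tested against each other. Class counts below are to be read beside these shares of all contigs, and were not tested against them. In FPKM, both ERF2i libraries lay above both GUSi libraries for 7158 of the 33315 contigs, and below for 16599. For ERF1i against GUSi these numbers were 6665 and 10733, and for ERF2i against ERF1i 7508 and 14265. Of the 99 tested members, 20 lay above and 58 below GUSi in ERF2i, and 34 and 32 in ERF1i. Groups without overlap were thus common, and where named below they only describe levels.

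The median log2 fold change of the tested loosening contigs was -0.40 in the lines labelled ERF2i and 0.18 in ERF1i against GUSi, and that of the synthesis contigs -0.27 and -0.03, beside -0.01 over all contigs in ERF2i. Without scaling beyond the total count, the median of all contigs in ERF2i moved to -0.24, and the synthesis calls were then 6 higher and 16 lower against GUSi, with 8.8% and 22.0% of all contigs called, and 8 higher and 15 lower against ERF1i, with 7.49% and 15.9%. FPKM as deposited carries no such scaling, so FPKM levels stand lower in ERF2i by about that shift, and fold changes below are on the scaled counts. In bulk roots, fewer cells of a type and less RNA per cell cannot be told apart. The ERF1i calls rested on the shared spread of the 6 libraries: 13 of the 14 were lost when only the 4 libraries compared were fitted, and 13 without ERF2i-3, 13 without ERF2i-2, 10 without GUSi-10 and 12 without GUSi-9. For ERF2i against GUSi, the same omissions ended 23, 30, 21 and 19 of the 41 calls, while 0 called members changed sign in any of 14 alternative fits.

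**Figure D1:**
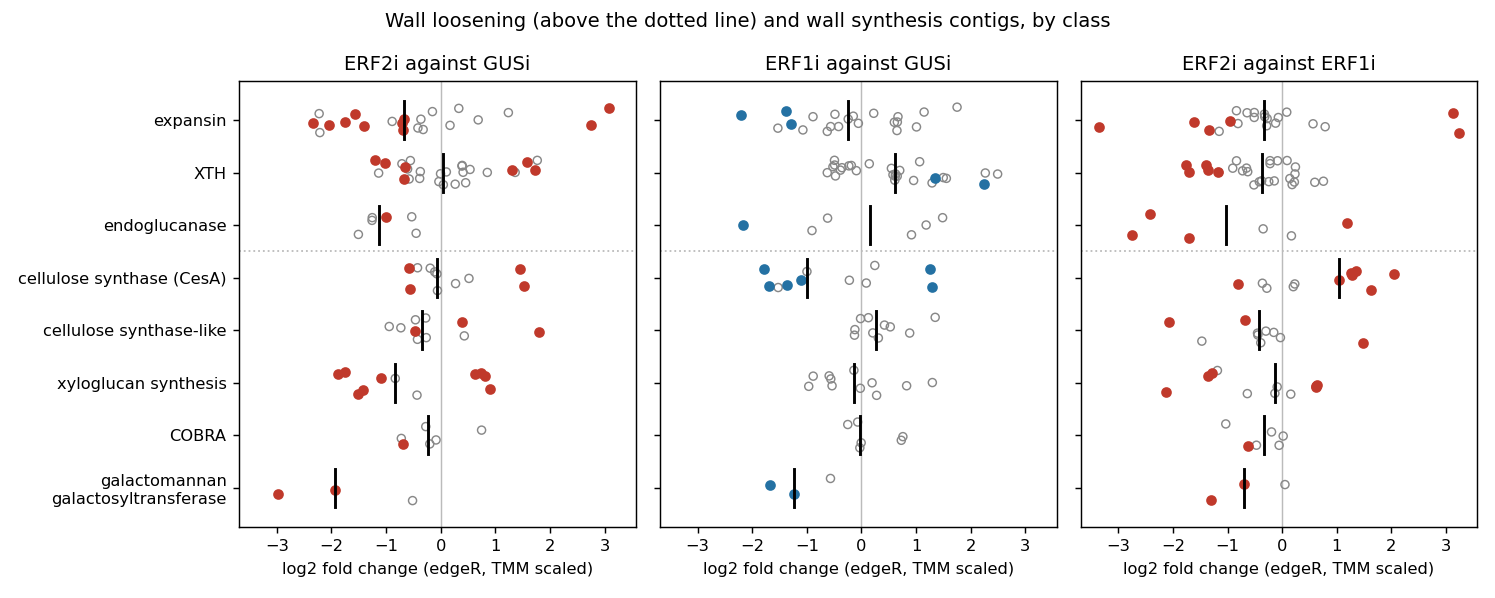
Log2 fold change of each tested member, by class, in ERF2i against GUSi, ERF1i against GUSi and ERF2i against ERF1i. Filled points passed an adjusted p under 0.05 in edgeR, open points did not, black bars are class medians, and classes above the dotted line are wall loosening. The expansin points of ERF2i against GUSi lie mostly left of 0, with 6 of 21 right of it, among them the pair near 3. The called CesA points of ERF1i lie either below -1 or above 1.

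Summed per library, loosening contigs stood at 1829 and 1934 FPKM in the lines labelled ERF2i and 2089 and 2329 in ERF1i, against 1415 and 1922 in GUSi, and synthesis contigs at 1306 and 1363 FPKM in ERF2i and 1595 and 1476 in ERF1i, against 1316 and 1558 in GUSi. The loosening sum over the synthesis sum was 1.40 and 1.42 in ERF2i and 1.31 and 1.58 in ERF1i, against 1.07 and 1.23 in GUSi, so both RNAi groups lay above GUSi. A single XTH contig, c31681_g1_i1, made up, in percent of the XTH sum, 63.4 and 60.2 in ERF2i and 52.8 and 43.8 in ERF1i, against 33.4 and 47.8 in GUSi. Without it, a choice made after its level was seen, the ratio was 0.665 and 0.718 in ERF2i and 0.708 and 0.996 in ERF1i, against 0.822 and 0.864 in GUSi, with ERF2i below GUSi and ERF1i on both sides of it. Expansins summed to 299 and 333 FPKM in ERF2i and 249 and 348 in ERF1i, against 395 and 684 in GUSi, and XTH contigs to 1516 and 1587 FPKM in ERF2i and 1817 and 1961 in ERF1i, against 999 and 1206 in GUSi. Without c31681_g1_i1, XTH contigs summed to 546 and 625 FPKM in ERF2i and 852 and 1094 in ERF1i, against 664 and 619.6 in GUSi, so the higher XTH sum of ERF2i rested on that contig and the ERF1i lines stayed above GUSi. With all members, the expansin sum over the XTH sum was 0.197 and 0.210 in ERF2i and 0.137 and 0.178 in ERF1i, against 0.396 and 0.568 in GUSi, and each ERF2i and ERF1i line lay below both GUSi lines. These sums are descriptions and were not tested.

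**Figure D2:**
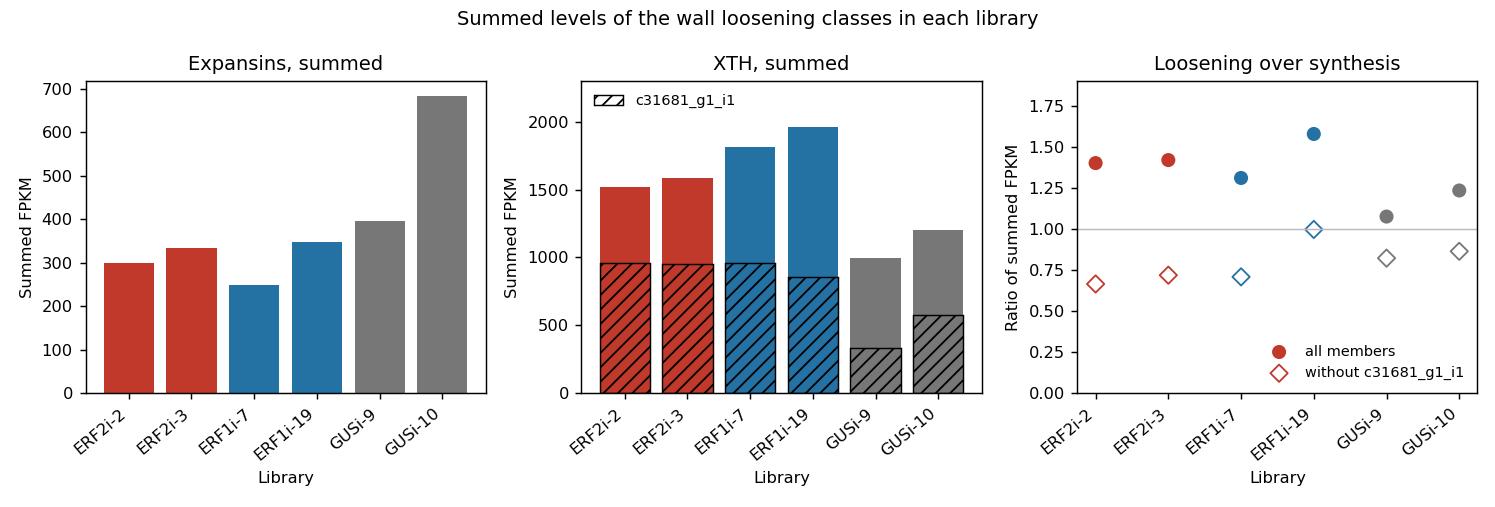
Summed FPKM of the expansin and XTH contigs in each library, and the ratio of summed loosening to summed synthesis FPKM, with ERF2i libraries first and GUSi libraries last. Hatched bars are c31681_g1_i1 alone. Circles show all members and diamonds leave that contig out, where the ERF2i ratios turn from above to below the GUSi ratios.

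More expansins fell than rose in both RNAi groups. Of 21 tested, 8 fell and 2 rose in the lines labelled ERF2i, and 3 fell and 0 rose in ERF1i, with median log2 fold changes of -0.68 and -0.24. The sign of the ERF1i median depended on GUSi-10. Without that library the medians were -0.40 in ERF2i and 0.15 in ERF1i, and without GUSi-9 they were -0.68 and -0.40. The best hit of 13 of the 22 expansin contigs was an expansin of *Breonia chinensis*, a tree of the same family. Expansin 4 (c24787_g1_i1), an alpha-type wall loosener, had 28 and 36.3 FPKM in ERF2i and 42.5 and 44.5 in ERF1i, against 83.6 and 139.9 in GUSi. Both RNAi groups lay below both GUSi lines, and the contig fell by 1.57 ± 0.25 (SE) on the log2 scale in ERF2i (adjusted p = 0.00651) and by 1.30 ± 0.25 in ERF1i (adjusted p = 0.0406). Another expansin, c47842_g1_i1, had 13.7 and 17.7 FPKM in ERF2i and 8.99 and 11.4 in ERF1i, against 34.9 and 62.9 in GUSi. It fell by 1.41 ± 0.29 in ERF2i (adjusted p = 0.0158) and by 2.20 ± 0.30 in ERF1i (adjusted p = 0.0194), and its ERF2i and ERF1i levels did not overlap, although that difference missed the threshold (0.79 ± 0.31, adjusted p = 0.116).

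Beta-expansins, the group best known from grass pollen and grass walls, were represented by 3 contigs. Beta-expansin 3 (c20396_g1_i1) had 3.08 and 3.92 FPKM in the lines labelled ERF2i and 8.55 and 6.56 in ERF1i, against 18.2 and 23.3 in GUSi. The groups were ordered ERF2i, ERF1i, GUSi without overlap, with a fall of 2.34 ± 0.22 in ERF2i (adjusted p = 0.00102), of 1.39 ± 0.20 in ERF1i (adjusted p = 0.0224), and of 0.95 ± 0.23 in ERF2i relative to ERF1i (adjusted p = 0.0314). Beta-expansin 1 (c24152_g1_i1) was read rarely in ERF2i, with 5 and 3 counts in ERF2i and 57 and 45 in ERF1i, against 10 and 40 in GUSi, and was lower in ERF2i than in ERF1i by 3.36 ± 0.71 (adjusted p = 0.0205). Expansin-like A2 (c22199_g1_i1), of a family whose wall action is not established, had 13.2 and 14.6 FPKM in ERF2i and 32.9 and 46 in ERF1i, against 27.7 and 24.3 in GUSi. ERF1i lay above GUSi (0.67 ± 0.17, adjusted p = 0.0812) and ERF2i below it (-0.68 ± 0.18, adjusted p = 0.0352), and ERF2i and ERF1i differed by -1.35 ± 0.18 (adjusted p = 0.00422).

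Against this direction, both contigs of expansin-related protein 1 were higher in the lines labelled ERF2i. The longer one, c17223_g1_i2, had 69.9 and 65.3 FPKM in ERF2i and 5.97 and 9.98 in ERF1i, against 14.6 and 8.71 in GUSi, a rise of 2.76 ± 0.27 in ERF2i (adjusted p = 0.00118) and a difference of 3.24 ± 0.29 from ERF1i (adjusted p = 0.00122). The shorter, c17223_g1_i1, of the same assembly gene and therefore sharing reads, rose by 3.08 ± 0.45 (adjusted p = 0.00445). In ERF1i neither passed the test (-0.49 and -0.06). Without these 2 contigs the expansins summed to 188 and 228 FPKM in ERF2i and 241 and 329 in ERF1i, against 374 and 671 in GUSi, a sum chosen after the values were seen.

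The control lines differed for this class. Of the 21 expansins, 14 were higher in GUSi-10 than in GUSi-9, with a median log2 ratio of 0.66, and the expansin c28277_g1_i1 had 29.5 and 29.4 FPKM in the lines labelled ERF2i and 28.4 and 65.4 in ERF1i, against 78.9 and 204 in GUSi. It fell by 2.04 ± 0.51 in ERF2i (adjusted p = 0.0303), while its ERF1i value of -1.53 ± 0.50 did not pass (adjusted p = 0.145). The contig whose best hit is the hairy root oncogene *rolC* was likewise unequal between the controls, at 948 FPKM in GUSi-10 and 265 in GUSi-9, and its part in these values was not tested. Of the 10 expansin calls in ERF2i, the number lost was 5 without ERF2i-3, 8 without ERF2i-2, 5 without GUSi-10 and 3 without GUSi-9 (adjusted p up to 0.21). Beta-expansin 3 and c17223_g1_i2 kept theirs against GUSi without any 1 library. The 3 calls in ERF1i were all lost without ERF2i-2 or ERF2i-3, and 1 without ERF1i-19, 2 without GUSi-10 and 1 without GUSi-9 (adjusted p up to 0.104). Between ERF2i and ERF1i, the number lost of 6 was 4 without ERF2i-3, 5 without ERF2i-2, 1 without ERF1i-19, 1 without ERF1i-7, 1 without GUSi-10 and 1 without GUSi-9 (adjusted p up to 0.211).

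**Figure D3:**
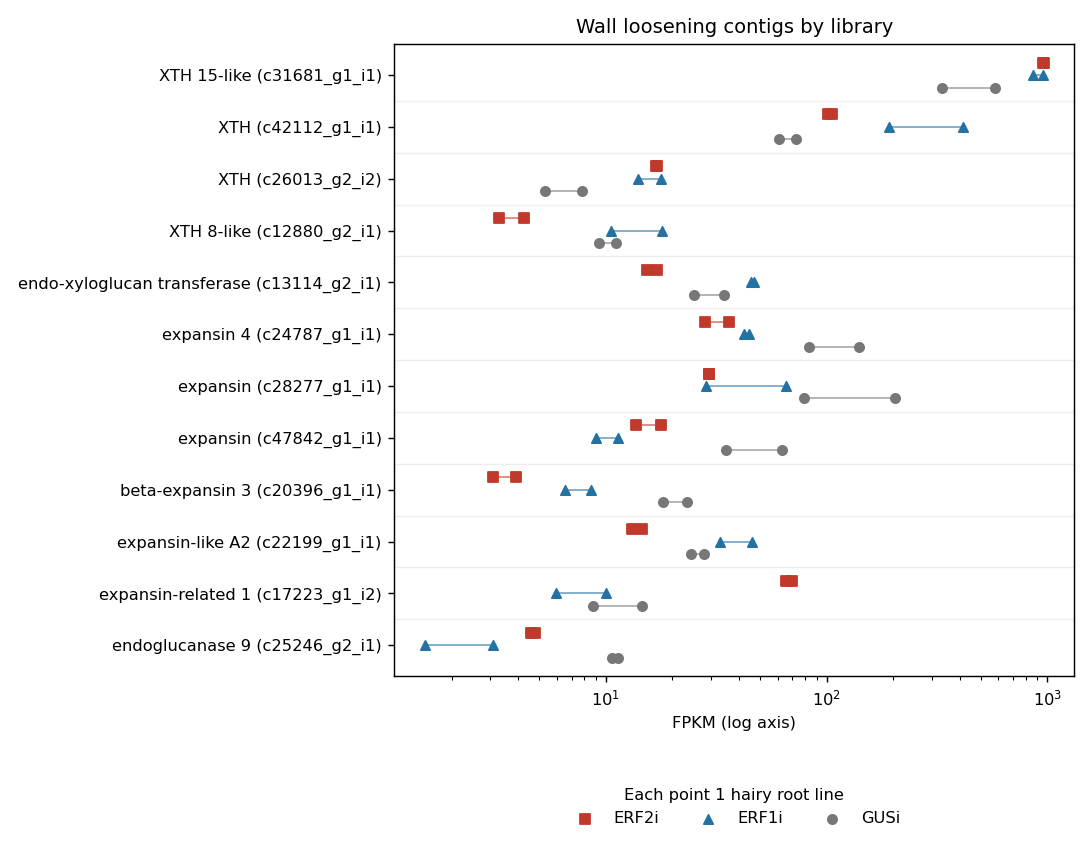
FPKM of 12 wall loosening contigs on a log axis, with 1 point per hairy root line and lines joining the 2 lines of a group (ERF2i squares, ERF1i triangles, GUSi circles). The XTH 15-like contig is higher in both RNAi groups, expansin 4 and beta-expansin 3 are lower in both, and expansin-related protein 1 stands apart in ERF2i alone.

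XTH contigs did not share 1 direction. Of 27 tested, 3 (11.1%) rose and 4 (14.8%) fell in the lines labelled ERF2i, not far from the 13.2% and 9.88% of all contigs. In ERF1i 2 rose and 0 fell, and 5 were lower and 0 higher in ERF2i than in ERF1i. Those 5 were c42112_g1_i1 and contigs of assembly components c12880 and c13114, which may be pieces of 1 gene per component. The median was 0.05 in ERF2i and 0.61 in ERF1i, and the ERF2i median turned to -0.18 without scaling. The highest of all members, XTH 15-like (c31681_g1_i1), had 961 and 955 FPKM in ERF2i and 959.7 and 858 in ERF1i, against 333 and 577 in GUSi. All 4 lines of ERF2i and ERF1i lay above both GUSi lines, with a rise of 1.30 ± 0.25 in ERF2i (adjusted p = 0.0126), whereas the ERF1i difference of 1.06 ± 0.25 missed the threshold (adjusted p = 0.0662). XTH c42112_g1_i1 showed a different order, with 102 and 105 FPKM in ERF2i and 192 and 416 in ERF1i, against 61.1 and 72.9 in GUSi. It rose by 2.25 ± 0.33 in ERF1i (adjusted p = 0.0227), the 2 ERF1i lines being far apart, and stood lower in ERF2i than in ERF1i (-1.39 ± 0.32, adjusted p = 0.0269).

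The contig c26013_g2_i2 (XTH 16-like by description, with a kiwifruit XTH7 as best hit) had 16.9 and 17 FPKM in the lines labelled ERF2i and 17.8 and 14 in ERF1i, against 5.29 and 7.81 in GUSi. It rose in both groups without overlap with GUSi, by 1.59 ± 0.25 in ERF2i (adjusted p = 0.00597) and by 1.35 ± 0.25 in ERF1i (adjusted p = 0.0377), and its companion c26013_g2_i1, of the same assembly gene, rose by 1.72 ± 0.34 in ERF2i (adjusted p = 0.0143). XTH 2 (c13163_g1_i2), the XTH fall of lowest p in ERF2i, had 5.38 and 5.72 FPKM in ERF2i and 7.32 and 6.37 in ERF1i, against 10.7 and 9.95 in GUSi, and fell by 0.67 ± 0.15 (adjusted p = 0.0232), with ERF1i at -0.52 ± 0.15 (adjusted p = 0.109). Also lower in ERF2i were XTH 8-like (c12880_g2_i1) and the endo-xyloglucan transferase c13114_g2_i1, an older name for the same enzymes. The first had 3.29 and 4.27 FPKM in ERF2i and 17.9 and 10.6 in ERF1i, against 9.28 and 11.2 in GUSi, and fell by 1.21 ± 0.32 in ERF2i (adjusted p = 0.0354). The second had 17.1 and 15.4 FPKM in ERF2i and 45.5 and 46.9 in ERF1i, against 25.2 and 34.3 in GUSi, and fell by 0.65 ± 0.17 in ERF2i (adjusted p = 0.0373). Both were lower in ERF2i than in ERF1i, by 1.75 ± 0.31 (adjusted p = 0.0117) and 1.35 ± 0.17 (adjusted p = 0.00375). A second 8-like contig, c12880_g1_i1, was lower in ERF2i than in ERF1i by 1.71 ± 0.35 (adjusted p = 0.0184) and did not pass against GUSi (-1.14 ± 0.36, adjusted p = 0.0614). The XTH contig c45434_g1_i1 was at 2.27 ± 0.50 in ERF1i (adjusted p = 0.0564), and XTH 23-like (c8769_g1_i1), with 109 and 133 FPKM in ERF2i and 143 and 172 in ERF1i, against 127 and 89.9 in GUSi, passed in no comparison. Of the 7 XTH calls in ERF2i against GUSi, the number lost was 5 without ERF2i-3, 7 without ERF2i-2, 5 without GUSi-10 and 4 without GUSi-9 (adjusted p up to 0.212), and both calls in ERF1i were lost without any 1 of the 2 GUSi or the 2 ERF2i libraries (adjusted p up to 0.156). Against ERF1i, the number lost of 5 was 4 without ERF2i-3, 4 without ERF2i-2 and 1 without ERF1i-19 (adjusted p up to 0.18), and c13114_g2_i1 kept its call.

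Only 6 of the 11 endoglucanase contigs passed the filter, and their levels were low, at most 11.3 FPKM in any library. Endoglucanase 9 (c25246_g2_i1), whose best hit is endoglucanase 9 of mulberry, had 4.59 and 4.79 FPKM in the lines labelled ERF2i and 3.07 and 1.52 in ERF1i, against 10.6 and 11.3 in GUSi. The 3 groups did not overlap, with falls of 1.0 ± 0.27 in ERF2i (adjusted p = 0.0379) and 2.18 ± 0.29 in ERF1i (adjusted p = 0.0182), and ERF2i stood 1.18 ± 0.31 above ERF1i (adjusted p = 0.0409). Endoglucanase 5-like and 24-like contigs (c23602_g1_i1, c23602_g2_i1 and c19183_g1_i1) were lower in ERF2i than in ERF1i, by 1.71 ± 0.45, 2.74 ± 0.68 and 2.42 ± 0.66 (adjusted p between 0.0325 and 0.0439), on 1 to 17 counts per ERF2i library. All 4 calls between ERF2i and ERF1i were lost without ERF2i-2, GUSi-10 or GUSi-9, 3 without ERF2i-3, 3 without ERF1i-19 and 2 without ERF1i-7 (adjusted p up to 0.218), and both calls of endoglucanase 9 against GUSi were lost without any GUSi or ERF2i library (adjusted p up to 0.208). Endoglucanase 11-like (c23896_g1_i1) was called in no comparison (adjusted p = 0.284 in ERF2i). The membrane endoglucanase that works with cellulose synthase, KORRIGAN in Arabidopsis, is described otherwise in the table. Contig c28437_g1_i1, whose best hit is endoglucanase 25, had 162 and 170.3 FPKM in ERF2i and 191 and 141 in ERF1i, against 186 and 179 in GUSi. It was called in no comparison (adjusted p = 0.699 in ERF2i and 0.868 in ERF1i).

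Of 11 tested CesA contigs, 2 rose and 2 fell in the lines labelled ERF2i against GUSi (18.2% each, beside 13.2% and 9.88% of all contigs). In ERF1i 2 rose and 4 fell, and 6 were higher and 1 lower in ERF2i than in ERF1i. In Arabidopsis, CESA4, CESA7 and CESA8 make secondary wall cellulose and CESA1, CESA3 and the CESA6 type make that of the primary wall. CesA4 (c32382_g4_i1) had 10.7 and 9.80 FPKM in ERF2i and 6.21 and 3.40 in ERF1i, against 11.4 and 14.5 in GUSi. Both ERF1i lines lay below the other 4. The contig fell by 1.36 ± 0.27 in ERF1i (adjusted p = 0.043), was at -0.11 in ERF2i (adjusted p = 0.79), and was higher in ERF2i than in ERF1i by 1.25 ± 0.27 (adjusted p = 0.0217). A contig with a CesA8 best hit (c31903_g1_i1) fell by 1.12 ± 0.23 in ERF1i (adjusted p = 0.0492).

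The other 2 CesA contigs that fell in ERF1i came from assembly component c30247, whose 4 tested contigs may be pieces of 1 gene and whose type the table leaves unclear. One of them, c30247_g4_i1, is described as CesA7, while the longest, c30247_g5_i1, is described as cellulose synthase 3 and has a best hit named cellulose synthase A1 of *Neolamarckia cadamba*. The longest had 13.8 and 13.7 FPKM in the lines labelled ERF2i and 6.38 and 3.51 in ERF1i, against 14.6 and 19 in GUSi. Its fall in ERF1i was 1.69 ± 0.27 (adjusted p = 0.0266) and that of c30247_g3_i1 was 1.78 ± 0.28 (adjusted p = 0.0254), while c30247_g4_i1 and c30247_g4_i2 were at -1.52 and -1.0 (adjusted p = 0.111 and 0.108). A xylem cysteine proteinase contig, of a family that acts in maturing xylem vessels, moved the same way. It had 81.8 and 78.9 FPKM in ERF2i and 56.6 and 43.9 in ERF1i, against 86.8 and 123 in GUSi, with a fall of 0.99 ± 0.20 in ERF1i (adjusted p = 0.0432). Laccases, which polymerise lignin, did not: 2 of 25 tested rose and 0 fell in ERF1i, and 0 rose and 3 fell in ERF2i. Of the 6 CesA calls in ERF1i, the number lost was 6 without ERF2i-3, 6 without ERF2i-2, 1 without ERF1i-19, 4 without GUSi-10 and 6 without GUSi-9 (adjusted p up to 0.194), which includes all 4 falls without any 1 of the ERF2i and GUSi libraries. Of the 7 calls between ERF2i and ERF1i, it was 6 without ERF2i-3, 7 without ERF2i-2, 3 without ERF1i-19 and 1 without ERF1i-7 (adjusted p up to 0.164).

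The 2 CesA contigs that rose were of the CesA6 type, and rose in both ERF2i and ERF1i. Contig c33232_g14_i1 had 57 and 64 FPKM in the lines labelled ERF2i and 55.8 and 61.7 in ERF1i, against 23.1 and 28.7 in GUSi, a rise of 1.45 ± 0.15 in ERF2i (adjusted p = 0.00129) and of 1.25 ± 0.15 in ERF1i (adjusted p = 0.0129). The shorter c14465_g1_i1, with the same CesA6 best hit, followed it closely, with 61.9 and 65.3 FPKM in ERF2i and 55.2 and 65.7 in ERF1i, against 22.1 and 29.3 in GUSi, and rises of 1.53 ± 0.16 (adjusted p = 0.0015) and 1.30 ± 0.16 (adjusted p = 0.0149). All 4 lines of ERF2i and ERF1i were above both GUSi lines, and the ERF2i and ERF1i lines overlapped. In ERF2i both calls held without any 1 library, and in ERF1i both were lost without GUSi-9, ERF2i-2 or ERF2i-3 (adjusted p up to 0.0709). The CesA contigs of highest level went the other way or missed the threshold. Contig c25381_g1_i1 had 89.7 and 105 FPKM in ERF2i and 149.6 and 129.5 in ERF1i, against 165 and 176 in GUSi, and fell by 0.58 ± 0.14 in ERF2i (adjusted p = 0.027), a call lost without any 1 GUSi or ERF2i library (adjusted p up to 0.168). CesA1 (c29562_g1_i1) had 110.0 and 122 FPKM in ERF2i and 159 and 156 in ERF1i, against 149 and 161 in GUSi, without a call in any comparison. Contig c23862_g1_i1, described as a cellulose synthase family protein, had 6.86 and 8.47 FPKM in ERF2i and 14.3 and 15.6 in ERF1i, against 13.8 and 12.6 in GUSi. The ERF2i lines lay below the other 4, with a fall of 0.56 ± 0.14 against GUSi (adjusted p = 0.0288) and of 0.80 ± 0.14 relative to ERF1i (adjusted p = 0.01). Its call against GUSi was lost without ERF2i-2, GUSi-10 or GUSi-9 (adjusted p up to 0.177) and that against ERF1i without ERF2i-2 (0.0903).

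**Figure D4:**
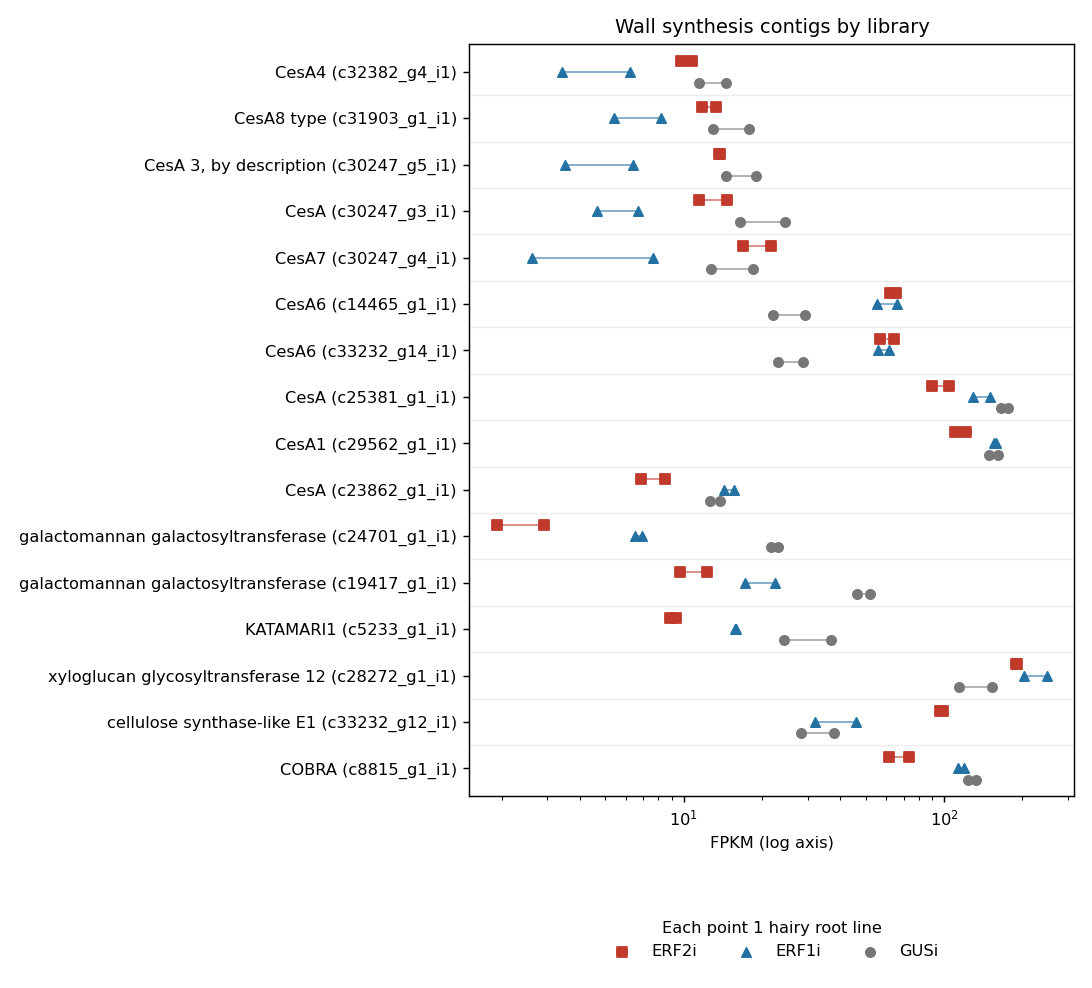
FPKM of 16 wall synthesis contigs on a log axis, drawn as in the plot of loosening contigs (ERF2i squares, ERF1i triangles, GUSi circles, 1 point per line). In the upper 5 rows, the CesA4, CesA8 type and c30247 contigs, the ERF1i triangles lie left of the other points. In the CesA6 rows both RNAi groups lie right of GUSi, and in the galactosyltransferase rows the order is ERF2i, ERF1i, GUSi.

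Galactomannan galactosyltransferases add galactose to a mannan backbone, as in the seed walls of coffee and legumes. Contig c24701_g1_i1, whose best hit is a coffee enzyme, had 1.92 and 2.92 FPKM in the lines labelled ERF2i and 6.90 and 6.49 in ERF1i, against 21.6 and 23 in GUSi. It fell by 2.97 ± 0.19 in ERF2i (adjusted p = 0.000464), by 1.67 ± 0.17 in ERF1i (adjusted p = 0.0107) and by 1.31 ± 0.20 in ERF2i relative to ERF1i (adjusted p = 0.00738). A second, c19417_g1_i1, whose best hit is a potato glycosyltransferase 7-like protein, had 9.71 and 12.3 FPKM in ERF2i and 22.5 and 17.2 in ERF1i, against 46.3 and 52.2 in GUSi. It had the same order, with falls of 1.93 ± 0.18 (adjusted p = 0.00101) and 1.24 ± 0.18 (adjusted p = 0.0207) against GUSi and 0.69 ± 0.18 between ERF2i and ERF1i (adjusted p = 0.0402). The third, c23976_g2_i1, was at -0.52 ± 0.19 and -0.57 ± 0.19 without a call (adjusted p = 0.0974 and 0.153). Both ERF2i calls against GUSi held without any 1 library. The ERF1i call of c24701_g1_i1 was lost without GUSi-9 (adjusted p = 0.0509), that of c19417_g1_i1 without any GUSi or ERF2i library (up to 0.083), and the differences from ERF1i were lost without ERF2i-2 for both and without GUSi-9, GUSi-10, ERF1i-7 or ERF2i-3 for c19417_g1_i1 (up to 0.239).

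Of 11 tested xyloglucan transferases, 4 rose and 5 fell in the lines labelled ERF2i and 0 passed in ERF1i. They were described by enzyme name after their values were seen. Of 7 tested contigs described as KATAMARI1, which in Arabidopsis (also MUR3) adds galactose to xyloglucan side chains, 4 fell and 1 rose in ERF2i, and 0 passed in ERF1i. Contig c5233_g1_i1 had 8.86 and 9.34 FPKM in ERF2i and 15.9 and 15.7 in ERF1i, against 24.4 and 36.8 in GUSi, falling by 1.52 ± 0.20 in ERF2i (adjusted p = 0.00299), with ERF1i at -0.88 ± 0.19 (adjusted p = 0.0546). The falls of c27387_g1_i2 and c31958_g1_i1 in ERF2i were 1.89 ± 0.31 (adjusted p = 0.00705) and 1.42 ± 0.20 (adjusted p = 0.00401), and both were also lower in ERF2i than in ERF1i, by 1.35 ± 0.31 (adjusted p = 0.0269) and 1.28 ± 0.20 (adjusted p = 0.00753). The most highly read of them, c47560_g1_i1, had 109 and 121 FPKM in ERF2i and 81 and 83.8 in ERF1i, against 84.1 and 91.1 in GUSi. It rose by 0.62 ± 0.12 in ERF2i (adjusted p = 0.0113), opposite to the 4 that fell. Among those 4, c27387_g1_i1 (a fall of 1.75 ± 0.33, adjusted p = 0.012) is of the same assembly gene as c27387_g1_i2 and can share its reads. A rarer contig, c28568_g1_i1, was lower in ERF2i than in ERF1i by 2.13 ± 0.43 (adjusted p = 0.018).

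Contigs described as xyloglucan glycosyltransferases, the CSLC-type enzymes that make the glucan backbone, were higher in 3 of 4 cases in the lines labelled ERF2i and 0 of 4 passed in ERF1i. The 12-like contig c28272_g1_i1 had 190.5 and 189 FPKM in ERF2i and 248 and 203 in ERF1i, against 115 and 152 in GUSi, and rose by 0.74 ± 0.18 in ERF2i (adjusted p = 0.0276), with ERF1i at 0.83 ± 0.18 just short of a call (adjusted p = 0.0543). The 2 contigs of the 6-like assembly gene rose by 0.89 ± 0.16 (adjusted p = 0.00865) and 0.81 ± 0.17 (adjusted p = 0.0184), and the 5-like contig c25734_g1_i1 fell by 1.10 ± 0.29 (adjusted p = 0.0347). Of the 9 xyloglucan transferase calls in ERF2i, the number lost was 6 without ERF2i-3, 6 without ERF2i-2, 2 without GUSi-10 and 5 without GUSi-9 (adjusted p up to 0.211), and c5233_g1_i1 and c31958_g1_i1 kept theirs. The control pair differed here too, with all 11 tested contigs higher in GUSi-10 than in GUSi-9. Against ERF1i, all 6 calls were lost without ERF2i-2 or ERF2i-3, 3 without ERF1i-7 and 2 without ERF1i-19 (adjusted p up to 0.202).

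Of 10 tested cellulose synthase-like contigs, 0 passed in ERF1i against GUSi. In ERF2i 2 (20%) rose and 1 (10%) fell, beside 13.2% and 9.88% of all contigs. CSLE1 (c33232_g12_i1), of a subfamily without an established polymer, had 96.6 and 98.9 FPKM in the lines labelled ERF2i and 31.9 and 46 in ERF1i, against 37.7 and 28.2 in GUSi. The ERF2i lines were above the other 4, with a rise of 1.80 ± 0.20 against GUSi (adjusted p = 0.00181) and 1.49 ± 0.20 against ERF1i (adjusted p = 0.00464). It shares assembly component c33232 with the longer CesA6 contig, which rose in both groups. CSLG3 (c28818_g1_i1) fell by 0.47 ± 0.10 in ERF2i (adjusted p = 0.0203) and CSLG1 (c25347_g1_i1) rose by 0.39 ± 0.10 (adjusted p = 0.0348), a call that was absent without scaling. CSLE6 (c33693_g2_i1) was lower in ERF2i than in ERF1i by 2.08 ± 0.48 (adjusted p = 0.0275). CSLD3 (c22665_g1_i1), which in Arabidopsis is needed for root hair growth, had 80.5 and 79.5 FPKM in ERF2i and 134 and 110.4 in ERF1i, against 55 and 83.9 in GUSi, and did not pass (adjusted p = 0.181 in ERF2i and 0.0695 in ERF1i). The CSLE1 rise against GUSi held without any 1 library. The CSLG1 and CSLG3 calls were lost without any GUSi or ERF2i library (adjusted p up to 0.176 and 0.112), the CSLE1 difference from ERF1i without ERF2i-2 (0.0522), and that of CSLE6 without ERF1i-19, ERF2i-2 or ERF2i-3 (up to 0.2).

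COBRA proteins are membrane-anchored wall proteins that in Arabidopsis orient cellulose deposition in expanding root cells. The COBRA contig of longest sequence (c8815_g1_i1) had 61.4 and 73.6 FPKM in the lines labelled ERF2i and 119 and 113 in ERF1i, against 124 and 132 in GUSi. The ERF2i lines lay below the other 4, with a fall of 0.69 ± 0.13 against GUSi (adjusted p = 0.0124) and 0.62 ± 0.13 against ERF1i (adjusted p = 0.021). COBRA-like 7 (c28018_g1_i1) had 136 and 123 FPKM in ERF2i and 163 and 123 in ERF1i, against 69.3 and 111 in GUSi, and a difference of 0.75 ± 0.24 in ERF2i (adjusted p = 0.0659), and the other 4 tested COBRA contigs passed in no comparison, among them c12362_g1_i1 and c27172_g2_i1 (adjusted p = 0.58 and 0.244 in ERF2i against GUSi, and 0.0602 for the first against ERF1i). The COBRA call against GUSi was lost without GUSi-10 or ERF2i-2 (adjusted p up to 0.0931) and that against ERF1i without ERF2i-2 (0.142). The 2 contigs described as COBRA-like 4, the secondary wall form in Arabidopsis, were too rarely read to test.

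Of the 4 members of neither role, 1 rose and 3 fell in the lines labelled ERF2i, and 0 passed in ERF1i. A contig described as an inhibitor of fungal xyloglucan-specific endoglucanase (c24189_g3_i1), a defence protein family, had 118 and 97 counts in ERF2i and 29 and 20 in ERF1i, against 32 and 34 in GUSi. It was higher in ERF2i, by 2.10 ± 0.23 against GUSi (adjusted p = 0.00158) and 2.41 ± 0.24 against ERF1i (adjusted p = 0.00177), and both calls held without any 1 library. Its contig is only 201 bp long and its best hit is a basic 7S globulin, so its FPKM is not set beside those of other members. Both contigs described as xyloglucanase 113 (c26536_g1_i1 and c26536_g1_i2, of the same assembly gene) fell in ERF2i, by 0.71 ± 0.17 (adjusted p = 0.0285) and 0.66 ± 0.13 (adjusted p = 0.0126). So did c32417_g1_i1, described only as xyloglucan 6-, by 0.57 ± 0.13 (adjusted p = 0.0219). Neither description was taken to show xyloglucan breakdown, and both were left out of loosening and synthesis. These 3 calls were lost without GUSi-10, ERF2i-2 or ERF2i-3, and those of xyloglucanase 113 also without GUSi-9 (adjusted p up to 0.183).

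Other wall genes outside the member list were counted for comparison. Over all contigs tested, 13.2% were higher and 9.88% lower in ERF2i than in GUSi, and 2.65% and 1.4% in ERF1i. Contigs with xylan or IRX in the description, for the main secondary wall hemicellulose and including some xylanases, had 10 of 22 tested lower and 0 higher in the lines labelled ERF2i, and 0 called in ERF1i, with medians of -0.61 and -0.22. Callose synthases had 7 of 19 higher and 0 lower in ERF2i, and 0 called in ERF1i. Enzymes of nucleotide sugar supply had 2 of 15 higher and 6 lower in ERF2i, and 1 higher and 0 lower in ERF1i. Extensins, arabinogalactan proteins and fasciclins had 1 of 30 higher and 5 lower in ERF2i, and 0 higher and 1 lower in ERF1i. Wall glycosidases had 8 of 45 higher (17.8%) and 3 lower (6.67%) in ERF2i, near the shares of all contigs, and 2 higher and 2 lower in ERF1i. Laccases were lower in ERF2i than in ERF1i in 16 of 25 cases (64%), beside 9.01% of all contigs.

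The 37 members below the filter had a median length of 318 bp, against 1310.0 bp for the 99 tested. They held at most 13 counts in a library, and 5 had 0 counts in all 6. They comprised 14 loosening contigs (8 XTH, 5 endoglucanases and 1 expansin) and 23 synthesis contigs (9 COBRA, 7 cellulose synthase-like, 4 xyloglucan transferases and 3 CesA). Differences in them were not detectable at this depth.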

How the data were processed

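RNA of 6 hairy root lines was sequenced from strand-specific libraries. The authors aligned the reads with Bowtie2 (version 2.0) to an earlier de novo assembly of the species and deposited RSEM expected counts and FPKM for each contig. Their comparisons used DESeq2 by the study's methods, and DESeq in the processing notes. Their fold changes and p-values were not used. No version of RSEM, or whether it counted by strand, is given in the sources used here. Contigs of 1 gene or of close paralogs can share reads.

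Expected counts, of which 1 was not whole, were rounded and tested with edgeR 4.0.16 in R 4.3.3 (quasi-likelihood test, TMM scaling, filterByExpr with a minimum count of 10 and a total of 15, all 6 libraries in 3 groups, 3 residual degrees of freedom, two-sided, Benjamini-Hochberg adjustment over 33315 contigs). The code was tested on simulated data. With 2 lines per group, each p-value sets a difference of group means against a spread between separately transformed clones. That spread is estimated over all 3 groups and drawn toward that of other contigs. Alternatives used DESeq2 1.42.0 and limma 3.58.1 on log2(FPKM + 1) and log2(FPKM + 0.1), and 14 alternative fits were made in all.

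Named contigs were, in each comparison, the 3 of lowest p in a class and the 10 largest called changes at a mean of at least 5 CPM, with the 2 of highest FPKM in GUSi per class and any absent from 1 group but holding at least 20 counts in each library of another. Others were named to describe a class after their values were seen: c31903_g1_i1, c27387_g1_i1, c30247_g4_i2, c30741_g1_i2, c26536_g1_i1 and contigs outside the member list. Members, classes and lists were chosen with earlier results of these data known. The fungal endoglucanase inhibitor was moved to neither role and the endo-xyloglucan transferase to XTH. Contig sequences were not used here.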

Additional observations from a re-analysis of the deposited data

How the results depend on the processing

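No paired analysis was possible because the clone numbers are not shared between groups. Counts of called members depended on the fit, most of all in ERF1i against GUSi. There, loosening members called higher, 2 as reported, were 8 with DESeq2, 1 without the filter and 0 in the 4 libraries alone or in limma with either pseudocount. Those called lower, 4 as reported, were 0 in the 4 libraries alone and in limma with 0.1. Synthesis members called higher, 2 as reported, were 5 with DESeq2 and 0 in the 4 libraries alone, and those called lower, 6 as reported, were 3 without the filter, 1 in the 4 libraries alone, 2 in limma with 1 and 1 in limma with 0.1. In ERF2i against GUSi, loosening higher, 5 as reported, was 9 in the 4 libraries alone and 3 on counts summed over assembly genes, and loosening lower, 13 as reported, was 20 without scaling, 6 without the filter and 7 when a log2 change of 1 or more was also required. Synthesis higher, 8 as reported, was 5 in both limma fits and 3 with that minimum, and synthesis lower, 11 as reported, was 7 with that minimum. In ERF2i against ERF1i, loosening lower, 12 as reported, was 7 without the filter, and synthesis higher, 10 as reported, was 6 in limma with 0.1. Synthesis lower, 9 as reported, was 15 without scaling, 14 and 15 in limma, and 5 with that minimum.

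Leaving out 1 library leaves a group with a lone sample, assumed to vary like the other groups. In ERF2i against GUSi the counts then ranged from 1 to 9 (loosening higher), 1 to 16 (loosening lower), 3 to 9 (synthesis higher) and 4 to 12 (synthesis lower). In ERF1i against GUSi they ranged from 0 to 7, 0 to 4, 0 to 5 and 1 to 9 in the same order, and in ERF2i against ERF1i from 1 to 5, 1 to 13, 0 to 10 and 0 to 9. Of all contigs in ERF1i against GUSi, 3.55% were called higher with DESeq2 and 0.0706% in the 4 libraries alone. The cause of these shifts was not tested. Of the named calls, 10 of 27, 0 of 13 and 3 of 25 in those 3 comparisons held in every alternative, and 0 changed sign. Placing 2 contigs by their description alone, an alternative chosen after seeing the data, moved no count by more than 1.5 times.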
